A study of Mus musculus with 6 samples.

Results

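Collagen genes encode the chains of the most abundant proteins of the extracellular matrix, and they were described here in the cortex of mouse embryos labelled Csmd3-/- and of WT embryos. The members are the protein-coding genes whose symbol in GENCODE M21 is Col, a number, the letter a and a number, with nothing before or after. There were 44 of them, all with a row among the 55401 gene rows of the deposited table. They fell into 11 fibrillar genes, 8 basement membrane genes, 9 FACIT genes (chains that sit on the surface of fibrils, with interrupted triple helices) and 16 others. Bulk RNA sequencing had been carried out on cortex of the C57BL/6 strain at embryonic day 18, in 3 Csmd3-/- libraries and 3 WT libraries. Csmd3, the gene disrupted, codes for a very long cell-surface protein built of CUB and Sushi modules. All embryos came from matings of Csmd3 heterozygotes, and RNA was taken up in TRIzol. The sources used here do not give which stretch of Csmd3 was removed, how many embryos stood behind a library, or their sexes and litters. The p-values therefore measure the spread between these libraries. The comparison describes how cortex libraries labelled Csmd3-/- differ from WT libraries in late embryos. What gave rise to the differences was not tested.

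A collagen molecule is a triple helix of identical or related chains. Fibrillar chains such as types I, III and V build the fibrils of connective tissue, type IV chains build the sheet-like network of basement membranes, and FACIT, beaded-filament and transmembrane chains decorate fibrils or link them to cells. In the brain, the cortical tissue itself holds few fibrils: fibrillar collagens are known mainly from fibroblasts of the meninges and from the walls of large vessels, and type IV collagen lines the blood vessels and the pial surface, to which radial glia attach. A newly made chain is hydroxylated, folded with the help of chaperones, trimmed outside the cell and cross-linked, and finished fibrils are bound by integrins and discoidin receptors and cut by metalloproteinases.

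Deposited totals were 68269607, 62987291 and 54244288 counts in Csmd3-/- libraries 1 to 3 and 60716370, 58879568 and 57531791 counts in WT libraries 1 to 3. Csmd3 itself had 675, 653 and 543 counts in the Csmd3-/- libraries and 992, 765 and 867 counts in the WT libraries. The groups did not overlap, with a log2 fold change of -0.59 (SE 0.13, adjusted p = 0.0233), although transcripts were still counted in every Csmd3-/- library and the call was lost without any 1 of the Csmd3-/- libraries or without WT library 1 (highest adjusted p = 0.101). The Csmd3-/- libraries differed widely in choroid plexus RNA. Ttr, the carrier protein made by the choroid plexus, had 131, 2262 and 25057 counts in Csmd3-/- libraries 1 to 3 and 4, 0 and 0 counts in WT libraries 1 to 3. Library 3 thus held most of it, followed by library 2, and collagen fold changes are given below with and without both. Library 1, which is then left, had the highest summed level of meningeal fibroblast markers (242 CPM, against 155 and 188 CPM in Csmd3-/- libraries 2 and 3). Markers of cortical neurons were abundant in all 6 libraries, with a summed level of 3547 to 4079 CPM in Csmd3-/- and 3058 to 3592 CPM in WT. None of the 9 was called in edgeR or DESeq2, and 2 had an unadjusted p under 0.05 in edgeR. CPM denotes counts scaled by the size of each library.

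Of the 44 collagen genes, 24 were higher in Csmd3-/- cortex, none was lower, 17 were tested without being called, and 3 were not tested because their counts were too low. Among all 19844 genes tested, 5.21% were called higher and 2.53% lower (7.74% in either direction) by the same edgeR quasi-likelihood test at an adjusted p of 0.05. At least 2-fold higher were 20 collagen genes, where the background was 2.69%, and at least 16-fold higher were 7, where it was 0.59%. At an unadjusted p under 0.05, 1 collagen gene was lower. The median log2 fold change of the 41 collagen genes tested was 1.15, against 0.002 for all genes tested. All 3 Csmd3-/- libraries stood above all 3 WT libraries for 28 of the 41, where 15.6% of all genes did so, and below them for 1, where 13.5% did so. Only Col13a1 had no WT library above the count filter and entered the test through the Csmd3-/- libraries alone. Of the other genes called higher, Col8a2 had 1 WT library above the filter and Col6a1 had 2. With 3 libraries needed, they too could be tested only because Csmd3-/- libraries were above the filter, which favours a call of higher. Among the 35 genes that were above the count filter in every WT library, 21 were called higher. With DESeq2 the calls were 25 higher and 0 lower (background 7.48% and 4.64%). Of the 24 calls by edgeR, 17 held whichever single library was left out. Without both Csmd3-/- libraries 2 and 3, the log2 fold changes of the called genes ran from 0.47 (Col15a1) to 10.4 (Col13a1). A single Csmd3-/- library is then left, so calls of that fit are not given. In bulk tissue, more cells of a type and more RNA per cell cannot be told apart, which applies to every difference given here.

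**Figure D1:**
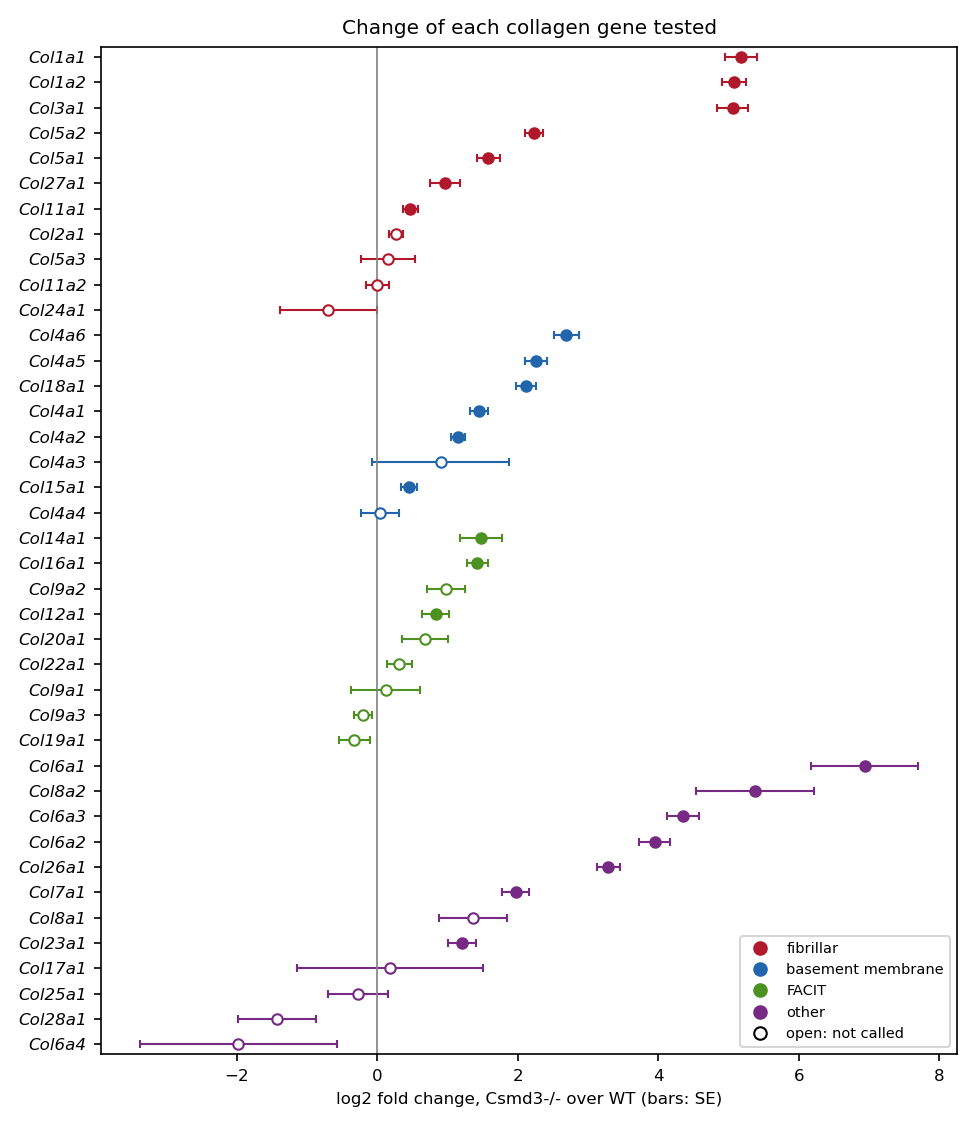
Log2 fold change, Csmd3-/- over WT, of 40 collagen genes tested (horizontal axis), by class; bars are 1 SE, filled points were called at an adjusted p under 0.05 and open points were not. Col13a1, at 0 in every WT library, is not drawn. Col1a1, Col1a2, Col3a1, Col6a1, Col6a2, Col6a3 and Col8a2 stand farthest to the right, and no gene called lies left of 0.

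By class, 7 of 11 fibrillar genes were higher (median log2 fold change 0.96), 6 of 8 basement membrane genes (median 1.3), 3 of 9 FACIT genes (median 0.68) and 8 of 13 others tested (median 1.97). The stretches of 250 bases before the RefSeq transcript start (assembly GRCm38.p6, strand of the gene) could be read for 35 of the 44 genes, as 38 windows. Shown here are genes of large change whose window held no annotated exon: Col3a1 of the fibrils of soft tissue, Col4a6 of the type IV network, Col6a3 of beaded filaments and the transmembrane Col13a1. No FACIT gene that was called had such a window. Capitals mark a match to TATAAA or to GGGCGG on either strand, and Col6a3 held neither. The windows were chr1:45311288-45311537 (plus strand) for Col3a1, chrX:141474077-141474326 (minus) for Col4a6, chr1:90843972-90844221 (minus) for Col6a3 and chr10:61979109-61979358 (minus) for Col13a1.
Col3a1: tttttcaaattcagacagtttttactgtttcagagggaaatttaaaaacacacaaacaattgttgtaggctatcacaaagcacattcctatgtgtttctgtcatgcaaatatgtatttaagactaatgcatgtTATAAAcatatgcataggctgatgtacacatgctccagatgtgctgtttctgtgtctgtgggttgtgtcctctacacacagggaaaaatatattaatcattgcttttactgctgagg
Col4a6: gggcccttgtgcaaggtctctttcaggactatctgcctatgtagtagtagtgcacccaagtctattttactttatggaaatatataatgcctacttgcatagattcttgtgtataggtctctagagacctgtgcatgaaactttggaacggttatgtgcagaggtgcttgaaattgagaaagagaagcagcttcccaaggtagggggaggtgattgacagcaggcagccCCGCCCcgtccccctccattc
Col6a3: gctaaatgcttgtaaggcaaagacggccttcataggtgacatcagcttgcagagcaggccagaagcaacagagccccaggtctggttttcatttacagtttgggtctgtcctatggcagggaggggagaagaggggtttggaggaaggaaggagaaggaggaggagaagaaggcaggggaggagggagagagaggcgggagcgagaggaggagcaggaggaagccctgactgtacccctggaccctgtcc
Col13a1: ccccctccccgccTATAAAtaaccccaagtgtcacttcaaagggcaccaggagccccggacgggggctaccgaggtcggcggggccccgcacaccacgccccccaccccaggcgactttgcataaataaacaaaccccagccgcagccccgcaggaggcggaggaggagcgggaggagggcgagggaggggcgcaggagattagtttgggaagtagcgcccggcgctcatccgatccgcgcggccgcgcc
The match to TATAAA began 117 bases before the start in Col3a1 and 237 bases before it in Col13a1, and the reverse complement of GGGCGG began 21 bases before the start of Col4a6. The window of Col4a6 lies in the 1308 bases between the heads of Col4a6 and Col4a5, which run in opposite directions on the X chromosome.

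Over all 38 collagen windows, GGGCGG (the GC box), read on both strands, was found in 22, or 57.9%, where 32.7% of the 32851 promoter windows of the same length held it. It was in 66.7% of the 21 windows of genes called higher and in 47.1% of the 17 windows of the other members. CCAAT was in 34.2% of the collagen windows and 33.8% of all windows, and TATAAA in 13.2% and 12.4%. These are matches to letters only. Some of the 38 windows held annotated exon bases, over all 250 bases in those of Col4a1 and Col4a2. The share of G and C in the collagen windows ran from 35.2% (Col3a1) to 76.4% (Col5a1). Neither was taken into account in these percentages. The 3 motifs were searched on their own and none contains another.

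Type I and type III chains, which form the thick fibrils of connective tissue, were scarce in WT cortex and abundant in Csmd3-/- cortex. Col1a1 (chromosome 11, 94936224 to 94953042, mm10) had 167, 106 and 128 CPM in the Csmd3-/- libraries and 4.37, 2.96 and 3.72 CPM in the WT libraries. Col1a2 (chromosome 6, 4504814 to 4541544), whose chain joins that of Col1a1 in type I collagen, had 200, 151 and 173 CPM in Csmd3-/- and 5.85, 5.45 and 4.15 CPM in WT. Col3a1 (chromosome 1, 45311538 to 45349706), the only chain of type III collagen, had 187, 157 and 193 CPM in Csmd3-/- and 6.38, 5.88 and 3.79 CPM in WT. The lowest Csmd3-/- library was far above the highest WT library for each of these genes. Their log2 fold changes lay close together, at 5.18 (SE 0.23, adjusted p = 4.97e-05) for Col1a1, 5.08 (SE 0.17, adjusted p = 5.87e-06) for Col1a2 and 5.06 (SE 0.22, adjusted p = 4.09e-05) for Col3a1.

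**Figure D2:**
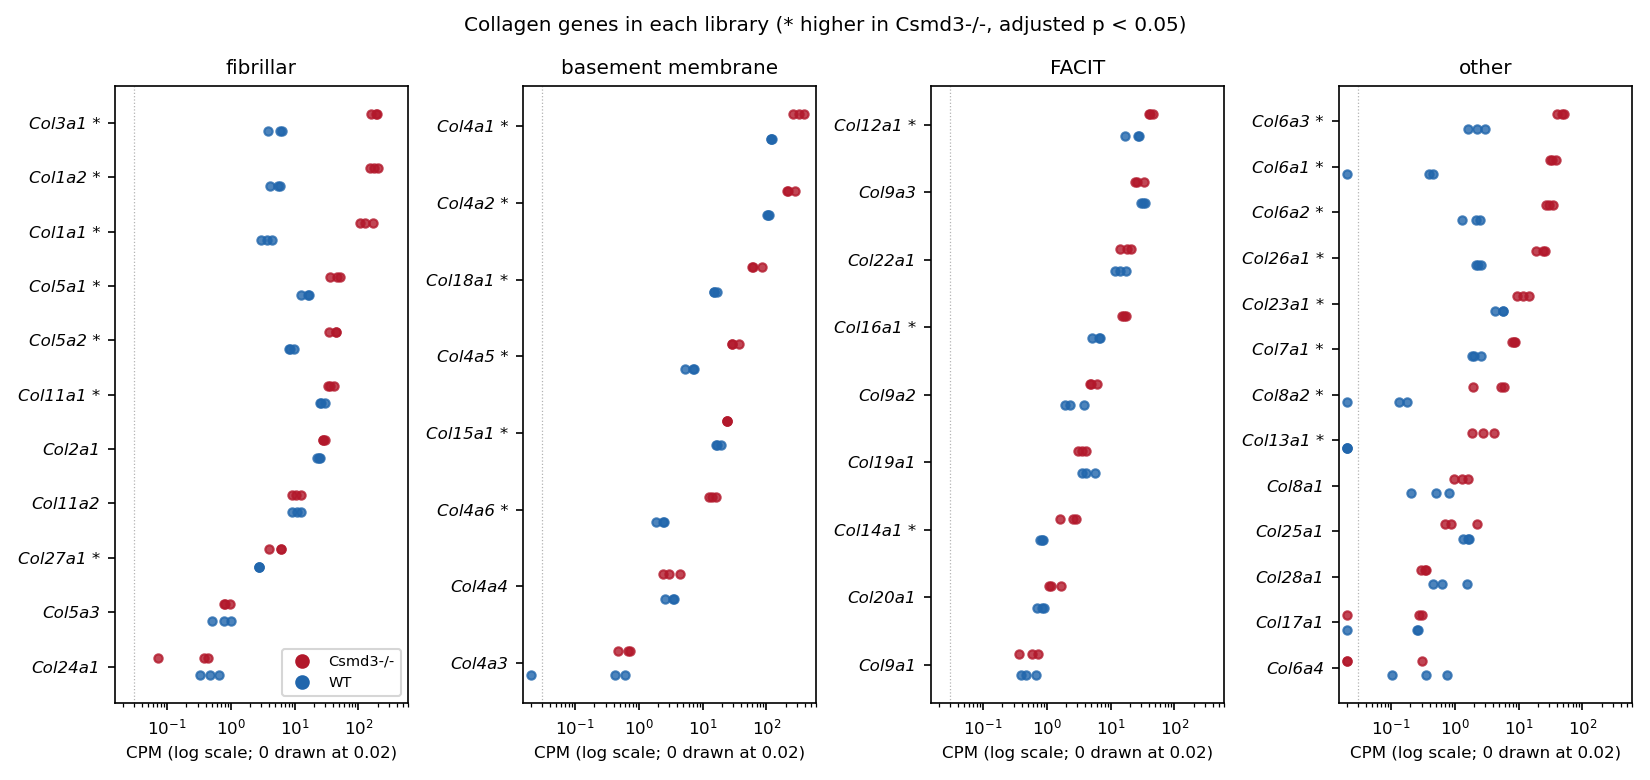
CPM of each collagen gene tested (log axis, with 0 drawn at 0.02) in the 3 Csmd3-/- libraries and the 3 WT libraries, by class, ordered by level; asterisks mark genes called higher. The points of Col1a1, Col1a2 and Col3a1 stand at 106 to 200 CPM in Csmd3-/- and at 2.96 to 6.38 CPM in WT, whereas the groups of Col9a3 and Col11a2 overlap.

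Of the type V chains, which are built into type I fibrils and help to set their width, Col5a1 and Col5a2 rose by smaller folds. Col5a1 had 51.6, 36.2 and 46.6 CPM in Csmd3-/- and 16.6, 15.9 and 12.5 CPM in WT (log2 fold change 1.58, SE 0.16, adjusted p = 0.000423). Col5a2 had 44.7, 34.7 and 44 CPM in Csmd3-/- and 9.77, 8.32 and 8.15 CPM in WT (2.23, SE 0.13, adjusted p = 2.47e-05). Both genes had groups that did not overlap, and both held their call whichever library was left out. Col5a2 and Col3a1 lie tail to tail on chromosome 1, with 24614 bases between them. The remaining type V gene, Col5a3, was near 1 CPM in both groups and was not called (0.15, SE 0.39, adjusted p = 0.866).

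The chains of cartilage-type fibrils gave small differences. Col11a1 had 42.1, 35.7 and 33.8 CPM in Csmd3-/- and 25.2, 25.8 and 29.5 CPM in WT (log2 fold change 0.47, SE 0.11, adjusted p = 0.0351). Its groups did not overlap, but the call was lost without any library except WT library 3 (highest adjusted p = 0.138). Col11a2, its partner, had 12.5, 10.5 and 9.24 CPM in Csmd3-/- and 9.03, 12.5 and 10.7 CPM in WT, with overlapping groups (0.00, SE 0.17, adjusted p = 0.996). Col2a1, the main fibril chain of cartilage, had 27.5, 30.2 and 28.2 CPM in Csmd3-/- and 23.7, 22.6 and 25 CPM in WT. Every Csmd3-/- library was above every WT library for Col2a1, yet the difference did not pass the threshold (0.27, SE 0.10, adjusted p = 0.129). Col27a1, a chain of thin fibrils, had 6.1, 3.93 and 6.1 CPM in Csmd3-/- and 2.78, 2.76 and 2.78 CPM in WT (0.96, SE 0.21, adjusted p = 0.026), and its call was lost without Csmd3-/- library 1 or 3 or WT library 1 or 2 (highest adjusted p = 0.114). Col24a1 was under 1 CPM everywhere and was not called (-0.70, SE 0.69, adjusted p = 0.627).

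Basement membrane collagens as a class stood higher per length in WT cortex than fibrillar ones, and the genes called changed by smaller folds than types I and III. Col4a1 and Col4a2, which together form the ubiquitous type IV network, lie head to head on chromosome 8 (11198423 to 11312826 and 11312805 to 11449287) and overlap by 22 bases at their starts. Col4a1 had 262, 326 and 390 CPM in Csmd3-/- and 118, 119 and 121 CPM in WT (log2 fold change 1.45, SE 0.13, adjusted p = 0.00044). Col4a2 had 216, 214 and 279 CPM in Csmd3-/- and 111, 103 and 106 CPM in WT (1.15, SE 0.10, adjusted p = 0.000251). The WT libraries lay within a few CPM of one another for Col4a1, while the Csmd3-/- libraries were spread, with library 3 highest for both genes.

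The chains of Col4a5 and Col4a6 form a second type IV network, found under smooth muscle and in some epithelia. Col4a5 (X chromosome, 141475385 to 141689234) had 29.3, 28.9 and 36.6 CPM in Csmd3-/- and 7.1, 5.32 and 7.3 CPM in WT (log2 fold change 2.26, SE 0.16, adjusted p = 4.97e-05). Col4a6 (X chromosome, 141165403 to 141474076), whose upstream sequence is printed above, had 12.6, 14.1 and 16.4 CPM in Csmd3-/- and 1.83, 2.38 and 2.48 CPM in WT (2.69, SE 0.18, adjusted p = 3.95e-05). For both, the lowest Csmd3-/- library was above the highest WT library. The third pair of type IV chains, Col4a3 and Col4a4, known from the filter of the kidney, lie head to head on chromosome 1 with starts 72 bases apart and neither was called. Col4a4 had a log2 fold change of 0.04 (SE 0.27, adjusted p = 0.953) and Col4a3, under 1 CPM in every library, 0.90 (SE 0.98, adjusted p = 0.669).

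The multiplexins, basement membrane chains that carry sugar side chains, were both called. Col18a1, the source of the fragment endostatin, had 58.9, 61 and 84 CPM in Csmd3-/- and 15.1, 16.5 and 15.2 CPM in WT (log2 fold change 2.12, SE 0.14, adjusted p = 3.95e-05). Col15a1 had 23.9, 23.7 and 23.7 CPM in Csmd3-/- and 16.7, 16 and 19.5 CPM in WT (0.45, SE 0.11, adjusted p = 0.0381). Groups did not overlap for either gene, but the call of Col15a1 was lost without any library except WT library 3 (highest adjusted p = 0.133).

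FACIT genes gave the fewest calls for their number. Col12a1, which binds type I fibrils, had 45.9, 39.8 and 41.1 CPM in Csmd3-/- and 26.4, 16.6 and 28.2 CPM in WT (log2 fold change 0.83, SE 0.19, adjusted p = 0.0333). Its WT library 2 was lowest, and the call was lost without any 1 Csmd3-/- library or without WT library 1 (highest adjusted p = 0.109). Col16a1 had 17.5, 15.2 and 16.3 CPM in Csmd3-/- and 6.52, 6.74 and 5.08 CPM in WT (1.42, SE 0.15, adjusted p = 0.000542). Col14a1, like Col12a1 a partner of type I fibrils, had 2.81, 1.6 and 2.53 CPM in Csmd3-/- and 0.871, 0.844 and 0.786 CPM in WT (1.47, SE 0.30, adjusted p = 0.0173). The groups of both were apart. The call of Col16a1 held whichever library was left out, and that of Col14a1 was lost without Csmd3-/- library 1 or 3 or WT library 1 or 2 (highest adjusted p = 0.0789).

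Col9a3, a type IX chain best known from cartilage, was the most abundant FACIT gene per length in both groups and was not called. It had 26.3, 23.9 and 33.4 CPM in Csmd3-/- and 30.4, 34.8 and 31.6 CPM in WT (log2 fold change -0.21, SE 0.13, adjusted p = 0.398), with overlapping groups. Its exons overlap those of Tcfl5 on the opposite strand over 6.07% of their length, the widest such overlap among the collagen genes, and the handling of strand in the counting is not given. Col9a2 had 4.96, 4.69 and 6.21 CPM in Csmd3-/- and 3.85, 2.31 and 1.89 CPM in WT. Its groups did not overlap and it missed the threshold in edgeR (0.98, SE 0.27, adjusted p = 0.0624) while passing it in DESeq2 (adjusted p = 0.0135). Col22a1, a chain of tissue junctions, had 18.1, 14.2 and 20.7 CPM in Csmd3-/- and 11.6, 14 and 17.2 CPM in WT, with overlapping groups (0.31, SE 0.18, adjusted p = 0.369). Col19a1 had 3.03, 3.51 and 4.1 CPM in Csmd3-/- and 5.61, 3.6 and 4.12 CPM in WT, also with overlap (-0.33, SE 0.22, adjusted p = 0.447). The weakly expressed Col20a1 (0.68, adjusted p = 0.26) and Col9a1 (0.12, adjusted p = 0.919) were not called.

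Among the other collagens, the type VI chains, which assemble into beaded filaments near cell surfaces, went with types I and III. Col6a3 (chromosome 1, 90765923 to 90843971) had 50.8, 39.3 and 47.8 CPM in Csmd3-/- and 2.98, 1.6 and 2.18 CPM in WT (log2 fold change 4.35, SE 0.23, adjusted p = 2.82e-05). Col6a2 (chromosome 10, 76595762 to 76623630) had 34, 27 and 30 CPM in Csmd3-/- and 2.43, 2.12 and 1.31 CPM in WT (3.95, SE 0.22, adjusted p = 2.27e-05). Col6a1 (chromosome 10, 76708792 to 76726168) had 38.9, 31.5 and 33.4 CPM in Csmd3-/- and 0.385, 0 and 0.454 CPM in WT. Col6a1 was thus almost uncounted in WT, with a log2 fold change of 6.94 (SE 0.76, adjusted p = 0.0112) in edgeR and 8.21 in limma-voom. The call of Col6a1 was lost without Csmd3-/- library 1 or 3 or WT library 1 (highest adjusted p = 0.0531), and the fold change then ranged from 6.36 to 7.46 over the libraries left out. The remaining type VI genes were at the edge of detection: Col6a4 was not called (-1.98, SE 1.40, adjusted p = 0.476), and Col6a5 and Col6a6, with Col10a1 of growth-plate cartilage, were not tested, with at most 19 counts in any library.

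Genes with almost no counts in WT included a transmembrane and a short-chain collagen. Col13a1, a transmembrane chain found at cell contacts, had 189, 117 and 227 counts in Csmd3-/- and 0 counts in each WT library, which made it at least 41.5-fold higher than the floor of 12 counts (about 3 sequenced fragments) over the WT group (adjusted p = 0.00035). Col8a2, a network chain of the corneal endothelium's membrane, had 405, 120 and 294 counts in Csmd3-/- and 8, 0 and 10 counts in WT. That is about 205 fragments in Csmd3-/- and 4 in WT, a ratio of 47.9 (95% interval 18.4 to 177, counting error only; log2 fold change 5.38, SE 0.84, adjusted p = 0.0149). Col8a2 was lowest in Csmd3-/- library 2, its call was lost without Csmd3-/- library 3 or WT library 1 (highest adjusted p = 0.0803) and in limma-voom (log2 fold change 6, adjusted p = 0.128), and its fold change moved between 4.81 and 5.97, by more than 1.5-fold without WT library 3. Col8a1, the partner of Col8a2, was not called (1.36, SE 0.49, adjusted p = 0.139), although its groups did not overlap.

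Col26a1, a little-studied chain known from testis and ovary, had 24.1, 18.9 and 25.8 CPM in Csmd3-/- and 2.16, 2.57 and 2.29 CPM in WT (log2 fold change 3.29, SE 0.16, adjusted p = 1.22e-05). Col7a1, which forms the anchoring fibrils of skin, had 7.89, 8.69 and 8.5 CPM in Csmd3-/- and 2.6, 1.98 and 1.82 CPM in WT (1.97, SE 0.19, adjusted p = 0.00032). Col23a1, a transmembrane chain, had 14.7, 9.4 and 11.7 CPM in Csmd3-/- and 5.71, 5.62 and 4.24 CPM in WT (1.20, SE 0.20, adjusted p = 0.00725). In all 3 genes the groups were apart, and each call held whichever library was left out. The transmembrane genes Col25a1, known from neurons (-0.28, adjusted p = 0.77), and Col17a1 of hemidesmosomes (0.18, adjusted p = 0.958) were not called. Col28a1, known from glia of peripheral nerve, was the only collagen gene with every Csmd3-/- library below every WT library and is named for that after its values were seen. It had 23, 22 and 16 counts in Csmd3-/- and 37, 90 and 26 counts in WT and was not called (-1.43, SE 0.55, adjusted p = 0.162).

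Summed over all 44 genes, collagens stood at 1647, 1485 and 1793 CPM in Csmd3-/- and 484, 467 and 484 CPM in WT, a ratio of means of 3.43. As a share of all counts this was 0.166%, 0.149% and 0.183% in Csmd3-/- and 0.0476%, 0.046% and 0.0482% in WT. The ratio was 9.19 for the other collagens, 6.35 for fibrillar, 2.59 for basement membrane and 1.37 for FACIT collagens. Within the fibrillar class, Col1a1, Col1a2 and Col3a1 together stood at 487 ± 70 CPM in Csmd3-/- and 14.2 ± 2.47 CPM in WT (SD, n = 3), a ratio of 34.3, and the fibrillar genes without them had a ratio of 1.9. The sums rest on few genes and were given no test.

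Levels of different genes can be set side by side only per length, here as CPM per kb of the principal transcript. Basement membrane chains then held the largest share of the summed WT level, at 39.8% ± 4.96 in Csmd3-/- and 53.0% ± 0.773 in WT (SD, n = 3). Fibrillar chains held 39.9% ± 4.08 in Csmd3-/- and 20.2% ± 0.348 in WT, other chains 12.6% ± 0.994 in Csmd3-/- and 4.77% ± 0.353 in WT, and FACIT chains 7.61% ± 0.195 in Csmd3-/- and 22.1% ± 0.158 in WT. The groups were apart in each class. The 3 genes of types I and III alone made up 31.1% ± 3.42 in Csmd3-/- and 3.14% ± 0.544 in WT. With the length of all annotated exons joined, chosen after seeing the data, fibrillar chains held 33.5% in Csmd3-/- and 16.4% in WT, basement membrane chains 47.3% in Csmd3-/- and 58.4% in WT, and each class kept the direction of its difference.

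**Figure D3:**
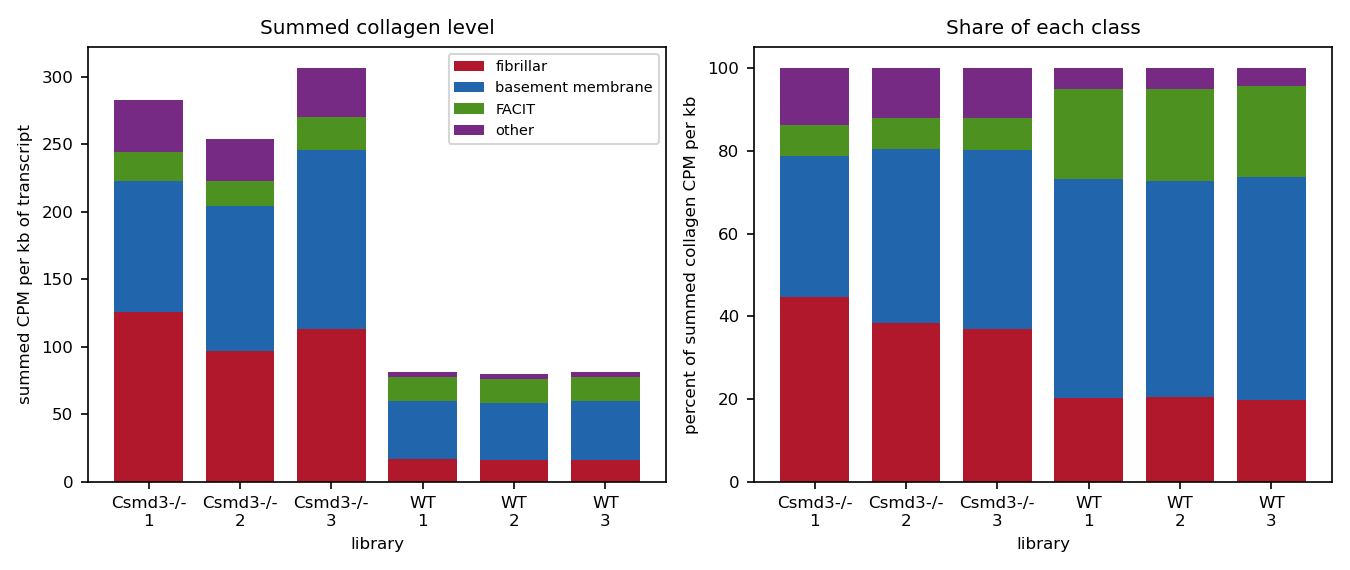
Left, summed CPM per kb of transcript of each collagen class, stacked, in each Csmd3-/- and WT library; right, each class as a percent of that sum. The stacks reach 253 to 307 CPM per kb in Csmd3-/- and 80.2 to 81.5 CPM per kb in WT, and the fibrillar share is 36.9% to 44.6% in Csmd3-/- and 19.8% to 20.5% in WT.

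In order of level per length, Col4a1 and Col4a2 came first and second in both groups, at 49.3 and 36.6 CPM per kb in Csmd3-/- and 18 and 16.5 CPM per kb in WT. Col1a2 was the third in Csmd3-/- at 32.6 CPM per kb, against rank 16 in WT at 0.963 CPM per kb. Col3a1 was the fourth in Csmd3-/- at 32.2 CPM per kb, against rank 17 in WT at 0.961 CPM per kb, and these neighbours in the order differed by less than the spread between libraries. Col1a1 was the fifth in Csmd3-/- at 22.5 CPM per kb, against rank 21 in WT at 0.621 CPM per kb. The order of Col1a1, Col1a2 and Col3a1 depends on the length chosen. Col1a2 has 5348 bases in its principal transcript and 12426 with all annotated exons joined. Col6a1 had rank 8 in Csmd3-/- and rank 35 in WT. Genes that held similar levels lost rank: Col9a3 had rank 7 in Csmd3-/- at 9.15 CPM per kb and rank 3 in WT at 10.6 CPM per kb, and Col2a1 had rank 12 in Csmd3-/- and rank 4 in WT.

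Whether paired chains kept their proportion was measured as the ratio of their counts per kb in each library (0.5 fragment added to each). The pair of Col3a1 and Col1a1 compares chains of different molecules, types III and I. With 3 libraries against 3, the smallest p an exact two-sided permutation test can give is 0.1, so none of the 10 pairs could pass the threshold. Col1a1 over Col1a2 was 0.751, 0.634 and 0.668 in Csmd3-/- and 0.676, 0.493 and 0.808 in WT, with overlapping groups (difference of log2 ratios 0.08, exact permutation p = 0.9, adjusted over the 10 pairs 1). Which of these transcripts was the more abundant depends on the length assigned to them. With all annotated exons joined the ratio was 1.58, 1.33 and 1.4 in Csmd3-/- and 1.42, 1.03 and 1.69 in WT. Col3a1 over Col1a1 also overlapped, at 1.19, 1.58 and 1.61 in Csmd3-/- and 1.55, 2.1 and 1.09 in WT (difference -0.07, exact permutation p = 1). Col4a5 over Col4a6 was 2.36, 2.09 and 2.26 in Csmd3-/- and 3.9, 2.26 and 2.97 in WT (difference -0.41, exact permutation p = 0.3, adjusted 0.5).

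**Figure D4:**
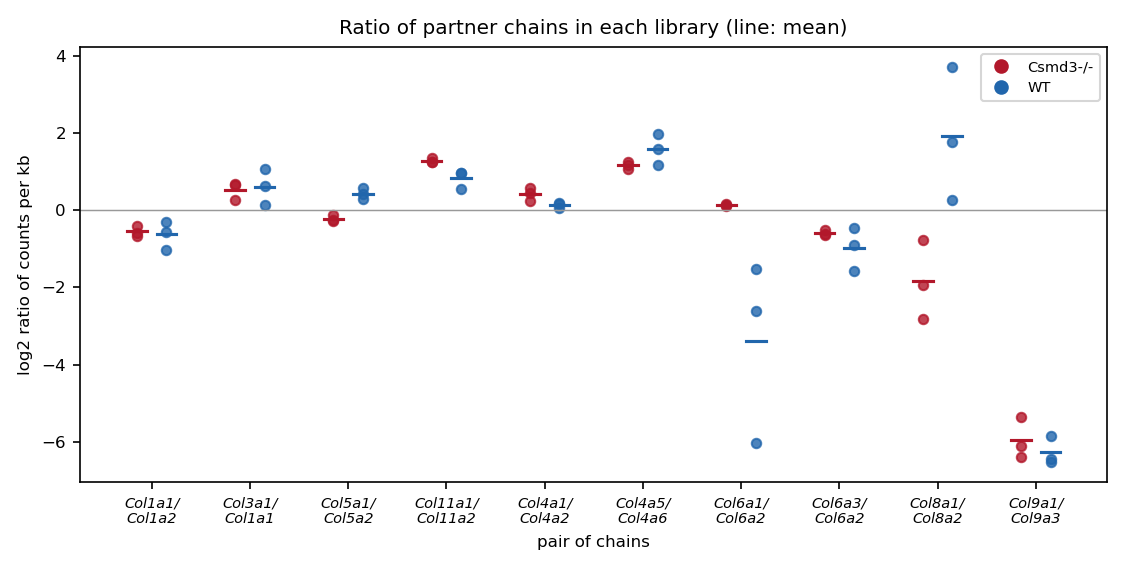
Log2 ratio of counts per kb of paired collagen chains (vertical axis) in each Csmd3-/- and WT library; lines are group means. The groups overlap for Col1a1 over Col1a2 and Col3a1 over Col1a1, and lie apart for Col5a1 over Col5a2, Col4a1 over Col4a2 and Col6a1 over Col6a2.

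In other pairs the chains moved unequally, each at the smallest p possible (exact permutation p = 0.1, adjusted 0.2). Col5a1 over Col5a2 was 0.909, 0.823 and 0.835 in Csmd3-/- and 1.34, 1.5 and 1.21 in WT (difference of log2 ratios -0.65). Col4a1 over Col4a2 was 1.18, 1.49 and 1.36 in Csmd3-/- and 1.04, 1.13 and 1.11 in WT (difference 0.29). Col11a1 over Col11a2 was 2.37, 2.38 and 2.56 in Csmd3-/- and 1.96, 1.45 and 1.93 in WT (difference 0.46). Which chain of a pair stands higher depends on the lengths assigned to both, whereas the difference between the groups does not. Col6a1 over Col6a2 was 1.1, 1.12 and 1.07 in Csmd3-/- and 0.164, 0.0154 and 0.35 in WT (difference 3.52), where the WT values rest on 0 to 26 counts of Col6a1. Col8a1 over Col8a2 was 0.142, 0.584 and 0.261 in Csmd3-/- and 1.19, 13.1 and 3.39 in WT (difference -3.75), again on few counts. Col6a3 over Col6a2 (difference 0.39, exact permutation p = 0.4) and Col9a1 over Col9a3 (0.32, exact permutation p = 0.5) overlapped.

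Beyond the chains, 55 genes that process, bind or break down collagen were listed, and of the 52 tested 21 were higher and 1 was lower in Csmd3-/- cortex, with a median log2 fold change of 0.54, where 5.21% and 2.53% of all genes tested were. Without Csmd3-/- library 3 the higher calls numbered 12, and the range of calls among all genes in such fits is given at the end. Without libraries 2 and 3, log2 fold changes of the genes called higher ran from 0.35 (Mmp14) to 8.03 (Lox), and that of Timp2 was -0.29. The enzymes and chaperones that act on chains inside the cell gave 4 calls of 18. Fkbp10, a folding catalyst for collagen, had 17.7, 13.8 and 22.2 CPM in Csmd3-/- and 7.41, 8.46 and 5.6 CPM in WT (1.32, SE 0.21, adjusted p = 0.00563). Crtap, of the prolyl 3-hydroxylation complex, had 13.8, 11.4 and 15.1 CPM in Csmd3-/- and 6.82, 6.1 and 6.79 CPM in WT (1.03, SE 0.15, adjusted p = 0.00314). Fkbp14 (0.77, adjusted p = 0.0122) and the lysyl hydroxylase Plod1 (0.74, adjusted p = 0.0132) were also called, and both lost the call without Csmd3-/- library 1 or 3, Plod1 also without WT library 2. Serpinh1, the collagen-specific chaperone, had 158, 51.6 and 132 CPM in Csmd3-/- and 57.3, 51 and 54.5 CPM in WT. Its Csmd3-/- library 2 lay among the WT libraries, and it was not called (1.07, SE 0.45, adjusted p = 0.267). P4hb, a subunit of prolyl 4-hydroxylase with other tasks in every cell, was not called (0.14, SE 0.07, adjusted p = 0.268).

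Of 13 genes that trim propeptides or cross-link fibrils, 6 were called higher. Lox, the enzyme that starts cross-linking, had 30.2, 15.7 and 17.9 CPM in Csmd3-/- and 0.201, 0 and 0.14 CPM in WT, almost no counts. Only 1 WT library was above the count filter for Lox. Its fitted log2 fold change was 7.51 (SE 0.69, adjusted p = 0.00375) and 8.20 without WT library 1, and limma-voom gave 8.31. Pcolce, which speeds the removal of the C-propeptide, had 9.1, 6.78 and 8.71 CPM in Csmd3-/- and 1.41, 1.52 and 1.1 CPM in WT (2.61, SE 0.21, adjusted p = 0.000107). The N-propeptidase Adamts14 (1.40, adjusted p = 0.0348) and the Lox relatives Loxl2 (1.27, adjusted p = 0.0119) and Loxl3 (0.75, adjusted p = 0.0204) were called too. Each lost its call without at least 1 library, Adamts14 without any but WT library 3, Loxl2 without Csmd3-/- library 3, and Loxl3 without Csmd3-/- library 1 or 3 or WT library 1 or 2. Exons of Loxl3 overlap those of Htra2 on the opposite strand over 11.6% of their length. The procollagen proteinases Bmp1 (-0.12, SE 0.08, adjusted p = 0.421) and Adamts3 (-0.07, SE 0.09, adjusted p = 0.733) were not called.

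**Figure D5:**
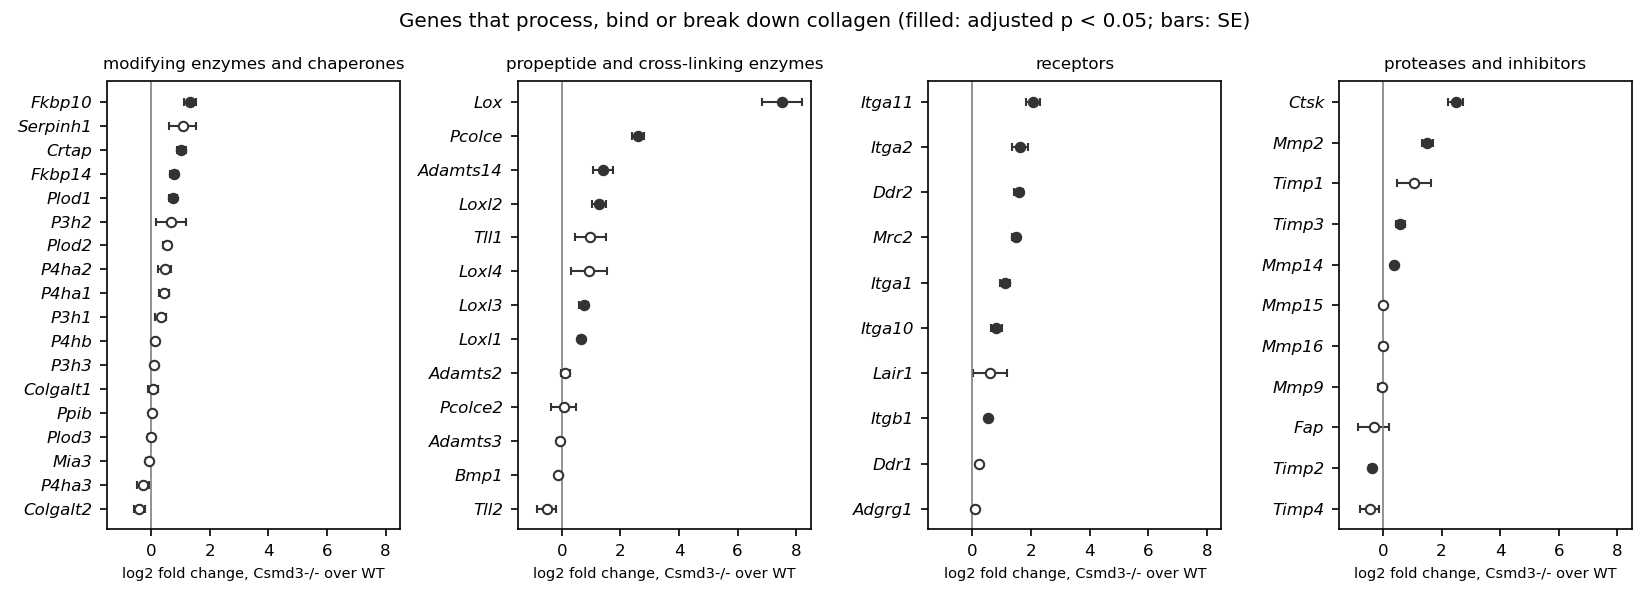
Log2 fold change, Csmd3-/- over WT (horizontal axis), of 52 genes that process, bind or break down collagen, in 4 role groups; bars are 1 SE and filled points have an adjusted p under 0.05. Lox lies at 7.51, Pcolce at 2.61 and Ctsk at 2.49, and Timp2 is the only filled point left of 0.

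Collagen receptors gave 7 calls of 10 tested. Itga11, an integrin chain for fibrillar collagen, had 8, 6.4 and 8.8 CPM in Csmd3-/- and 1.83, 1.34 and 2.41 CPM in WT (2.06, SE 0.24, adjusted p = 0.00112). Ddr2, a receptor kinase for fibrillar collagen, had 26.3, 19.7 and 22 CPM in Csmd3-/- and 8.19, 6.48 and 7.98 CPM in WT (1.58, SE 0.15, adjusted p = 0.00032). Mrc2, which takes up collagen fragments, had 37.9, 30 and 33.7 CPM in Csmd3-/- and 12.4, 11.8 and 12.3 CPM in WT (1.48, SE 0.11, adjusted p = 9.17e-05). The groups of all 3 were apart, as were those of the integrin chains Itga2 (1.64, adjusted p = 0.00817) and Itga1 (1.10, adjusted p = 0.00539). Adgrg1, the receptor for type III collagen on neural progenitors, had 192, 191 and 175 CPM in Csmd3-/- and 171, 170 and 188 CPM in WT, with overlapping groups, and was not called (0.08, SE 0.07, adjusted p = 0.596). Ddr1, the discoidin receptor of epithelia and glia, was not called either (0.23, SE 0.07, adjusted p = 0.0783).

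Of 11 proteases and inhibitors tested, 4 were higher and 1 was lower. Ctsk, a lysosomal protease able to cut triple helices, had 5.91, 5.04 and 4.49 CPM in Csmd3-/- and 0.704, 0.844 and 1.2 CPM in WT (2.49, SE 0.26, adjusted p = 0.000545). Mmp2, a gelatinase, had 16.1, 13.5 and 16.5 CPM in Csmd3-/- and 5.16, 6.89 and 4.08 CPM in WT (1.52, SE 0.19, adjusted p = 0.00187). The inhibitor Timp3 (0.60, adjusted p = 0.0401) and the activator of Mmp2, Mmp14 (0.39, adjusted p = 0.0232), rose less. Timp2, an inhibitor that also takes part in activating Mmp2, was lower, with 159, 143 and 152 CPM in Csmd3-/- and 222, 191 and 173 CPM in WT (-0.37, SE 0.09, adjusted p = 0.0444). The call of Timp2 was lost without any library except WT library 3 (highest adjusted p = 0.175). Timp3 lost its call without Csmd3-/- library 1 or 3 or WT library 1 or 2 and shares 21.3% of its exon length with Syn3 on the opposite strand, and Mmp14 lost its call without any 1 Csmd3-/- library or WT library 1. Mmp15 (0.02, SE 0.10, adjusted p = 0.948) and Mmp16 (0.00, SE 0.09, adjusted p = 0.999), both membrane-bound, were not called.

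Markers of several other cell types moved with these genes. No collagen gene is in the marker lists. Against the 5.21% of all genes tested that were called higher, all 12 tested of 13 meningeal fibroblast markers were higher in Csmd3-/-, with a summed level of 242, 155 and 188 CPM in Csmd3-/- and 11, 11.3 and 8.94 CPM in WT and a median log2 fold change of 5.05. Lum, Twist1, Aldh1a2, Slc6a13 and Slc22a6 were above the count filter in only 1 WT library, and Foxc2 and Cldn11 in 2. These genes could be tested only because the Csmd3-/- libraries were above the filter, which favours a call of higher. Of 12 mural cell markers 8 were higher (332 to 370 CPM in Csmd3-/- and 190 to 211 CPM in WT), of 10 endothelial markers 7 (351 to 449 CPM in Csmd3-/- and 194 to 231 CPM in WT), and of 11 macrophage and microglia markers 9 (129 to 154 CPM in Csmd3-/- and 46 to 50.4 CPM in WT). The same limit of the filter holds for the calls of Myh11 and Tagln among mural cell markers and of Lyve1 and Pf4 among macrophage markers. The part of these cell types in the collagen differences was not tested. Choroid plexus markers, 5 tested of 8 and none called in edgeR (4 at an unadjusted p under 0.05 and 3 in DESeq2), summed to 2.93, 39.9 and 473 CPM in Csmd3-/- and 0.804, 0.258 and 0.733 CPM in WT. Of these 8, Folr1 was at 0 in all WT libraries. In Csmd3-/- library 1 Folr1, Kcne2, Otx2 and Prlr were at 0, and Ttr, Kl, Clic6 and Calml4 had 131, 34, 24 and 12 counts.

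Markers were also listed for tissues outside the brain that hold much collagen, and their part in the collagen differences was not tested either. Cartilage markers, 2 of 7 tested and Matn3 called higher, summed to 0.704 to 1.82 CPM in Csmd3-/- and 0.559 to 0.737 CPM in WT, with Matn1 and Matn3 at 0 in WT. Matn3 had only 12, 15 and 15 counts in the Csmd3-/- libraries and entered the test through them alone. Acan, the other cartilage marker tested, was not called (log2 fold change -1.38, SE 0.66, adjusted p = 0.263). Bone markers, 3 of 7 tested and none called in edgeR (1 at an unadjusted p under 0.05 and 1 in DESeq2), summed to 4.82 to 6.83 CPM in Csmd3-/- and 2.45 to 3.51 CPM in WT, with Bglap2 at 0 in all libraries and Sp7 at 0 in WT. The groups of the bone sum were apart, and most of it was Alpl, with 379, 261 and 165 counts in Csmd3-/- and 99, 120 and 150 counts in WT. Epidermal markers, 1 of 6 tested and not called in edgeR (nor in DESeq2 or at an unadjusted p under 0.05), summed to 4.8 to 7 CPM in Csmd3-/- and 4.73 to 6.08 CPM in WT, nearly all of it Krt10, with Krtdap at 0 in all libraries. Skeletal muscle markers, 3 of 7 tested and none called in edgeR or DESeq2 (1 lower at an unadjusted p under 0.05), summed to 1.23 to 2.04 CPM in Csmd3-/- and 1.89 to 3.17 CPM in WT, with Myog at 0 in WT.

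The order of the 3 Csmd3-/- libraries differed between classes of collagen, as a description without a test. Of the genes called, 5 of 7 fibrillar, 5 of 8 other and 3 of 3 FACIT genes were highest in library 1 and lowest in library 2, while Col3a1, Col13a1 and Col26a1 were highest in library 3 and lowest in library 2. None of the 6 basement membrane genes had the first of these orders. Col4a1, Col4a6 and Col18a1 were highest in library 3 and lowest in library 1, and Col4a2 and Col4a5 were highest in library 3 and lowest in library 2. With 3 libraries few orders are possible, and more than 1 marker list shares each of them. Col15a1 differed little between the 3 libraries. Col27a1, counted above as highest in library 1, was level at 6.1 CPM in libraries 1 and 3. Libraries 1 and 2 differed little for Col4a2 (216 and 214 CPM) and Col4a5 (29.3 and 28.9 CPM).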

How the data were processed

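Gene counts for 55401 rows and 6 libraries were deposited by the authors as whole numbers. Low values piled up at 4, 8 and 12 in every library, so the deposited values were treated as estimated counts in which 1 fragment adds about 4. They were already whole. Tools named in the submitters' processing notes are HISAT2 2.0.5, StringTie 1.3.4, Trim Galore 0.4.4 and FastQC 0.11.9, with the build mm10. The sources used here do not say which program counted, with which annotation and strand setting.

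Rows were matched to GENCODE M21 (mm10): 55141 received a name, 54349 by an identical versioned identifier, and rows with an identifier but no name, which were kept, held at most 0.0238% of counts. Genes were filtered by filterByExpr (at least 10 counts in a median library, 3 libraries), scaled by TMM and tested in all 6 libraries with edgeR 4.0.16 (quasi-likelihood F-test, robust, R 4.3.3), with Benjamini-Hochberg adjustment over 19844 genes. Every adjusted p of a gene comes from that test unless DESeq2 1.42.0 or limma-voom is named or a library is left out. With a library left out, filter, scaling, test and adjustment were run anew on the remaining libraries. SE is the absolute log2 fold change over the square root of F. Intervals are exact binomial (Clopper-Pearson) on fragments and, like the floor of 3 fragments, cover counting error only. Sequences came from RefSeq (GRCm38.p6, the assembly of mm10). Scripts were tested on simulated data.

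The members, classes, lists and tests were chosen with earlier results of these data known. Per-library values are given for the collagen genes called and for those not called whose mean log2 CPM reached 1, up to 30 genes, and in each of 4 machinery roles for up to 5 called genes by size and 2 not called whose mean log2 CPM reached 4.

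As alternatives, scaling by RLE or upper quartile was tried, then DESeq2, limma-voom (limma 3.58.1), no filter, a filter of 1 CPM in 3 libraries, counts divided by 4, the replicate number as a block, each library left out, and Csmd3-/- libraries 2 and 3 left out together.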

Additional observations from a re-analysis of the deposited data

How the results depend on the processing

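Collagen genes higher numbered 24 or 25 under RLE and upper-quartile scaling, DESeq2, limma-voom, both other filters and counts divided by 4, and none was lower in any fit. The 24 of limma-voom shared 23 with edgeR, all but Col8a2. These settings put the median log2 fold change of all genes between -0.01 and 0.008. DESeq2 called 921 of all genes lower. Leaving out 1 library gave 17 to 24 collagen genes higher (5 to 7 fibrillar, 5 to 6 basement membrane, 1 to 3 FACIT, 6 to 8 other), 472 to 1402 of all genes higher and 137 to 956 lower, 12 to 23 machinery genes higher and 0 to 1 lower, and a ratio of summed levels of 3.28 to 3.61. FACIT genes fell to 1 without Csmd3-/- library 1 or 3. Without Csmd3-/- libraries 2 and 3, which assumes that the single library left varied like the others, 17 collagen genes (1 FACIT) and 8 machinery genes were higher, 0 machinery genes were lower, and 262 of all genes were higher and 43 lower. The ratio of summed levels was then 3.47. The difference in Col1a1 over Col1a2 ran from -0.11 (without WT library 2) to 0.24, and that in Col3a1 over Col1a1 from -0.32 to 0.16 (without WT library 2), with 0.07 without Csmd3-/- library 1. Over all genes tested, libraries of the same number did not deviate together (correlations 0.028, -0.003 and 0.002). Pairing that acts on only some genes could be missed by these values, and the labels do not say whether the numbers pair the samples. With the replicate number as a block, 19 collagen genes and 18 machinery genes were higher, 0 machinery genes were lower, and 686 of all genes were higher and 255 lower. The cause of these shifts was not tested. For genes near 0 in WT, such as Col6a1, Col8a2, Col13a1 and Lox, depth limits the fold change.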
